A study of Mus musculus with 6 samples.

Results

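The factors described here stand at the end of the Hippo pathway, measured in cultured mouse cochleae. They are the co-activators Yap1 and Wwtr1 (the gene of TAZ), the DNA-binding factors Tead1, Tead2, Tead3 and Tead4, and the vestigial-like cofactors Vgll2, Vgll3 and Vgll4. The 9 genes were taken by symbol from a count table of 24421 gene symbols, whatever their values. The row with the symbol Taz was not used for TAZ, since in the mouse it names tafazzin, a mitochondrial enzyme of lipid remodelling. Of the 9 genes, 8 had enough counts to be tested and Vgll2 did not.

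Cochleae of mice at postnatal day 2, labelled WT, were kept in culture for 12 h, exposed to neomycin at 1 mM for 6 h, and then cultured for 5 days with EdU, a thymidine analogue, at 10 μM. Neomycin is an aminoglycoside antibiotic that kills hair cells (HCs), the sensory cells of the cochlea. The treatment label separates 3 control samples from 3 neomycin samples, and 6 to 8 cochleae were pooled for each. The growth text gives the neomycin step for all 6 samples, and control is read here as no neomycin. RNA came from the explant as a whole, so fewer cells of a type and less RNA per cell cannot be told apart. Nothing states that the samples came from separate litters or cultures, and p-values measure the spread between these samples. The libraries held between 50471116 and 66068108 counts. The defining HC genes Myo7a and Pou4f3 were present in both groups, at 27.2 ± 4.86 and 25.2 ± 1.52 CPM (counts relative to the library total, in CPM, with libraries scaled by the TMM method) in control and at 12.3 ± 1.20 and 5.60 ± 2.26 CPM after neomycin (SD, n = 3).

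YAP and TAZ have no DNA-binding domain of their own. When the kinases of the Hippo pathway phosphorylate them they stay in the cytoplasm and are degraded, and otherwise they enter the nucleus and join TEAD factors at their target genes. Vestigial-like proteins bind the same TEAD factors, and VGLL4 competes there with YAP. In the developing organ of Corti, YAP and TEAD are known for the growth of the progenitor pool. RNA levels say nothing of where the YAP protein lies.

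TEAD factors recognise the letters GGAATG, or CATTCC on the other strand. Windows of 300 bases around annotated start sites, 250 before and 50 after, were taken from RefSeq on GRCm38.p6, and 7 of the 9 genes had a window. Tead1 and Tead4 had none. The element stood on either strand in the windows of 5 of these 7 genes (71.4%), namely Yap1, Wwtr1, Tead3, Vgll3 and Vgll4, and in those of 16.6% of the 27025 genes with a window. A gene counted if any of its windows held the element, so genes with more windows had more places for it. Tead3 had 3 windows, Wwtr1 had 2 and each of the rest had 1. All genes together had 32851 windows, of which 14.7% held the element. Tead2 and Vgll2 held none in their windows. The match is of letters only, and the 2 spellings are the 2 strands of the same element. The 30 bases around the element are shown for each of the 5 genes, because they show where these letters stand near the start sites of the factors' genes. Tead3 has 4 elements, and the element outside its exons is shown. Capitals mark the element, and each is written on the strand of its gene.
Yap1, chr9:8004720-8004749, minus strand, before the gene: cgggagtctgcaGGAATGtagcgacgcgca
Wwtr1, chr3:57576029-57576058, minus strand, before the gene: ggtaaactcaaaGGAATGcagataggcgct
Tead3, chr17:28350970-28350999, minus strand, before the gene: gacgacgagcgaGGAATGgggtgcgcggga
Vgll3, chr16:65815114-65815143, plus strand, before the gene: cccgcctccccaCATTCCggctaccctgcc
Vgll4, chr6:114969268-114969297, minus strand, in an intron: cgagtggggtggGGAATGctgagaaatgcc

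The element began 141 bases before the start site in Yap1, 136 bases before the nearer of 2 start sites in Wwtr1, 182 in Tead3, 63 in Vgll3 and 82 in Vgll4. Of 15 genes of the YAP and TAZ target list described further on that had a window, 7 (46.7%) held the element.

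After neomycin, 1 of the 8 tested factors changed at an adjusted p-value under 0.05, and it was Vgll4, which fell (edgeR's quasi-likelihood test, adjusted by Benjamini-Hochberg across all genes tested). Among all 15988 genes tested, 29.0% changed, 12.9% higher and 16.1% lower. With the study's further demand of a fold change over 1.5, 0 of the 8 passed against 8.84% of all genes. The count was also 0 with DESeq2 and with limma-voom, where 1480 and 1423 of all genes passed. No factor exceeded 1.5-fold in the edgeR fit, so an unadjusted p under 0.05 joined to that fold change could only give 0. On library totals without TMM 1 factor passed, Vgll4, where 1480 of all genes did. At an unadjusted p under 0.05 alone there were 3 of the 8, Yap1, Tead4 and Vgll4, against 41.0% of all genes. The groups did not overlap for 4 of the 8 (50%), against 43.5% of all genes. The 8 factors had a median log2 fold change of -0.14, set against -0.004 for all genes, and 7 of the 8 lay below 0. Removing the trend of fold change on gene length left 4 below 0.

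**Figure D1:**
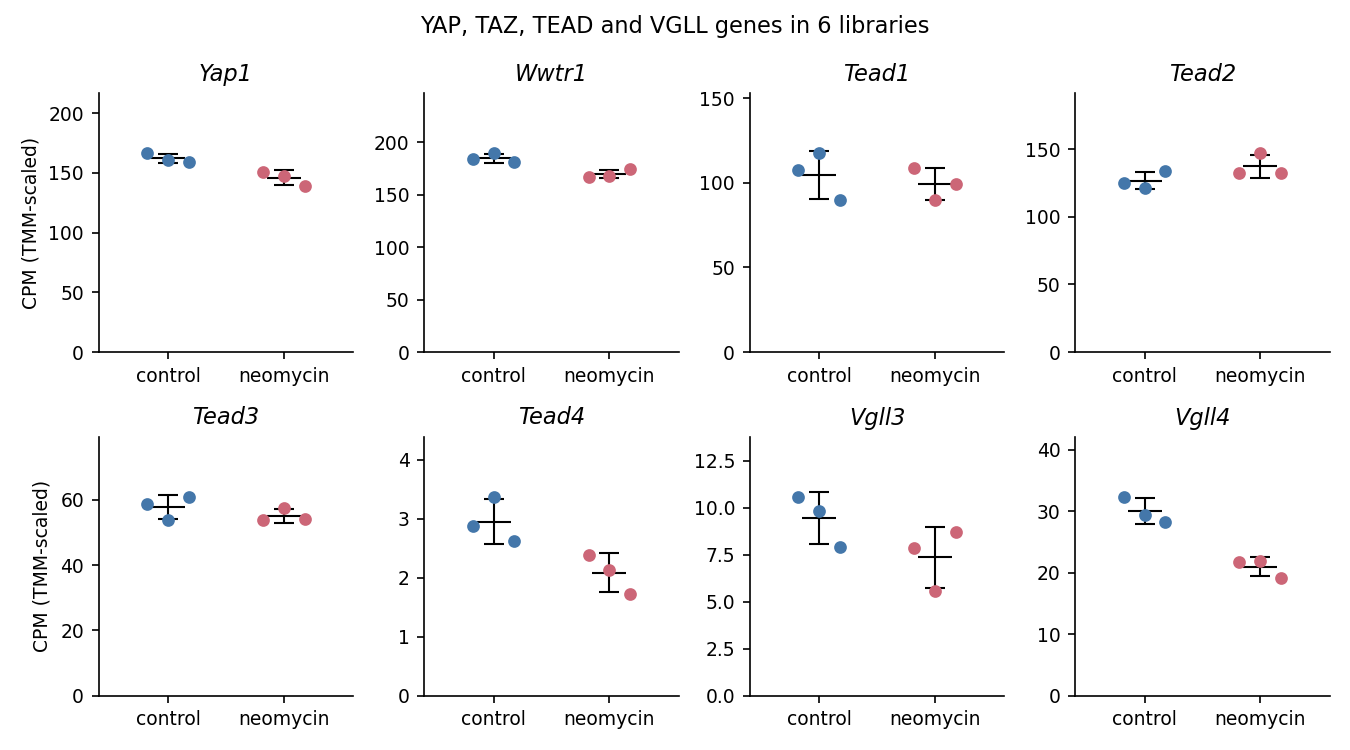
TMM-scaled CPM (vertical axes, each from 0) of the 8 tested factors in the 3 control libraries (blue) and the 3 neomycin libraries (red). Points are libraries, the horizontal line is the group mean and the bars are 1 SD. Vgll4 shows groups apart by a wide margin for its level, with control libraries at 28.3 CPM or more and neomycin libraries at 22.0 or less.

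Yap1 lies on chromosome 9 from 7931999 to 8004596 (mm10, minus strand, GENCODE). It had 167, 161 and 159 CPM in control replicates 1 to 3 and 151, 148 and 140 CPM in neomycin replicates 1 to 3. Every neomycin library lay below every control library, by a small margin. The log2 fold change was -0.15 (standard error 0.069, 95% interval -0.30 to -0.0025), with an adjusted p of 0.116 by edgeR. On library totals without TMM it was -0.22 (edgeR, adjusted p = 0.0392), and with the trend on gene length removed it turned to 0.01 (edgeR, adjusted p = 0.899). An RNA on the opposite strand, Gm20416, overlaps exons of Yap1, and the strand setting of the counting is not given in the sources used here.

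Wwtr1 encodes TAZ, the paralogue of YAP, on chromosome 3 from 57455649 to 57575910 on the minus strand. Its levels were 184, 190 and 181 CPM in the control libraries and 167, 168 and 175 CPM after neomycin. The groups were again apart without overlap. The log2 fold change was -0.12 (standard error 0.067, 95% interval -0.27 to 0.03, edgeR adjusted p = 0.198), and on library totals without TMM it was -0.19 (edgeR, adjusted p = 0.0495). The 95% intervals of both co-activators ended short of a 1.5-fold fall.

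The 4 TEAD genes encode the factors that carry YAP and TAZ to DNA. Tead1, on chromosome 7 from 112679318 to 112906807 on the plus strand, had 108, 117 and 89.6 CPM in control and 109, 89.8 and 99.5 CPM after neomycin. The groups overlapped throughout. Its log2 fold change was -0.08 (standard error 0.10, 95% interval -0.30 to 0.14, edgeR adjusted p = 0.596), which turned to 0.01 without control replicate 2 and to 0.16 with the length trend removed. Tead1 has the longest exons of the 9 genes, with 13570 bases in their union.

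Tead2, the TEAD gene known for early embryonic tissue, lies on chromosome 7 from 45215753 to 45233644 on the plus strand. It had 125, 122 and 134 CPM in control and 132, 147 and 133 CPM after neomycin. It was the only tested factor with a log2 fold change above 0, at 0.11 (standard error 0.074, 95% interval -0.05 to 0.27, edgeR adjusted p = 0.265), and the groups overlapped through control replicate 3. It was 0.063 without neomycin replicate 2 and 0.046 on library totals without TMM. Exons of Cd37, a leukocyte tetraspanin gene on the opposite strand, overlap those of Tead2.

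Tead3, on chromosome 17 from 28331671 to 28350817 on the minus strand, stood at 58.8, 53.8 and 61.0 CPM in control and 53.9, 57.6 and 54.0 CPM after neomycin. All 3 neomycin libraries fell inside the range of the control group. The log2 fold change was -0.07 (standard error 0.073, 95% interval -0.23 to 0.09, edgeR adjusted p = 0.513), and it was -0.14 on library totals without TMM and -0.02 without control replicate 3, and turned to 0.03 with the length trend removed.

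Tead4, a TEAD gene known from the trophectoderm and from skeletal muscle, lies on chromosome 6 from 128224288 to 128300823 on the minus strand. It was the least abundant of the 4, with 198, 176 and 147 counts in control and 127, 126 and 93 counts after neomycin. In CPM these were 2.87, 3.37 and 2.62 against 2.39, 2.14 and 1.73. The groups did not overlap, but the interval was wide at this depth, and the log2 fold change of -0.50 (standard error 0.22, 95% interval -0.98 to -0.02) had an unadjusted p of 0.0417 and an adjusted p of 0.107 by edgeR. Tead3 and Tead4 share 10 stretches of 50 bases in their exons (0.144% and 0.272% of each), so few reads could be split between them.

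Vgll4 encodes a cofactor with a pair of TEAD-binding motifs that competes with YAP for TEAD. The gene lies on chromosome 6 from 114860628 to 114969994 on the minus strand, and no stretch of 50 bases of its exons recurs in another gene. Its counts were 2235, 1537 and 1589 in control and 1155, 1297 and 1031 after neomycin. In CPM these were 32.4, 29.5 and 28.3 against 21.7, 22.0 and 19.2. The groups were well apart, with the lowest control library above the highest neomycin library by several times the SD of the neomycin group. The mean went from 30.04 ± 2.12 to 20.97 ± 1.55 CPM (SD, n = 3), which is 30.2% lower by the fit. The log2 fold change was -0.52 (standard error 0.092, 95% interval -0.72 to -0.32, edgeR adjusted p = 0.00179). The fall did not reach the 1.5-fold threshold.

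The 250 bases before the RefSeq start of Vgll4, chr6:114969204-114969453 on the minus strand of GRCm38.p6, are shown because this is the factor whose RNA fell. They lie in an intron of the longer GENCODE gene and in no exon, and capitals mark the TEAD element.
Vgll4, before the start site: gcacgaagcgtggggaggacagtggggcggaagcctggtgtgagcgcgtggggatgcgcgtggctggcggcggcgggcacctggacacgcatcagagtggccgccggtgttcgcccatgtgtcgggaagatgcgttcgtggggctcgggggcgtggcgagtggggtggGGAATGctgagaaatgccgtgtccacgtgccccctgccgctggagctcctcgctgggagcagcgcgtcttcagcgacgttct

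The genes whose pattern over the 6 samples was nearest to that of Vgll4 were Usp46 and Kif5c, by the root mean square difference of centred log2 CPM. Usp46, which encodes a deubiquitinase, had 77.0, 69.0 and 66.5 CPM in control and 49.4, 48.3 and 45.8 CPM after neomycin, a difference from Vgll4 of 0.0419 on the log2 scale. Kif5c, a kinesin heavy chain gene, had 58.3, 56.1 and 55.0 CPM in control and 42.1, 40.5 and 35.1 CPM after neomycin, a difference of 0.0423. Over the 14035 genes compared the median difference was 0.311. All 6 points share their libraries, and the likeness is a description.

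Vgll3, a cofactor gene known from mesenchyme and muscle, lies on chromosome 16 from 65815257 to 65866368 on the plus strand. It had 10.6, 9.81 and 7.92 CPM in control and 7.83, 5.54 and 8.68 CPM after neomycin. Neomycin replicates 1 and 2 lay below all control libraries and neomycin replicate 3 did not. The log2 fold change was -0.36 (standard error 0.17, 95% interval -0.73 to 0.01, edgeR adjusted p = 0.130), and without neomycin replicate 2 it was -0.19.

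Vgll2, a cofactor gene of skeletal muscle on chromosome 10 from 52022502 to 52028471 on the plus strand, had 0 counts in 5 libraries and 1 count in neomycin replicate 2. A count of 0 allows up to 3 counts, or 0.0454 to 0.0594 CPM in these libraries, and no fold change is given. Vgll1, the remaining paralogue, looked up as a check of symbols, had 1 count in control replicate 1, 1 in neomycin replicate 3 and 0 in the others. Tafazzin, under the symbol Taz, was at 54.5 ± 3.70 CPM in control and 60.0 ± 2.01 CPM after neomycin.

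**Figure D2:**
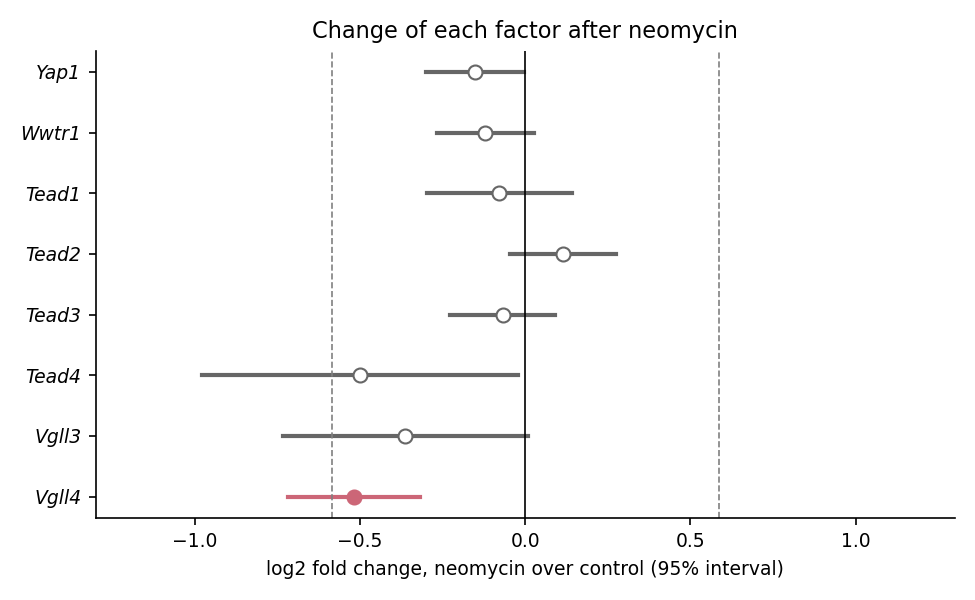
Log2 fold change of neomycin over control (horizontal axis) for the 8 tested factors, with lines for the 95% interval of the edgeR fit. The filled point has an adjusted p under 0.05, open points do not, and dashed lines mark a 1.5-fold change. Vgll4 at -0.52 is the filled point, and Tead4 at -0.50 has the widest interval.

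Levels of different genes were compared as CPM per kilobase of exon, over the 6 libraries, with the union of GENCODE exons as length. The authors counted on another annotation, and the order depends on the length used. Wwtr1 stood highest at a mean of 37.1, followed by Tead2 at 27.6 and Yap1 at 16.7. Tead3 at 8.42 and Tead1 at 7.52 came next, and their ranges overlapped, with Tead3 the higher in 5 of 6 libraries. Vgll4 had 4.73, Vgll3 1.18, Tead4 0.700 and Vgll2 0.0017 CPM per kilobase. Vgll3 and Tead4 also overlapped in range, though Vgll3 was the higher in all 6 libraries, and every other pair of neighbours was apart with these lengths. With the longest transcript as length, a choice made after seeing the data, Tead2 at 38.9 stood above Wwtr1 at 37.7 and Vgll4 at 11.6 above Tead1 at 10.2, each in 4 of 6 libraries and with overlapping ranges. Yap1 then had 29.2 and Tead3 16.4 CPM per kilobase. With either length Wwtr1 was above Yap1 in all 6 libraries.

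Within the TEAD family, ratios taken inside a library do not depend on how libraries are scaled. The shares and ratios given here were not corrected for the trend of fold change on gene length. With that trend removed, Tead1 had a log2 fold change of 0.16 and Tead2 of 0.15 (edgeR, adjusted p = 0.152 and 0.139). Tead2 held 60.6% ± 2.05 of the summed TEAD level per kilobase in control and 64.0% ± 1.90 after neomycin (SD, n = 3). The share of Tead4 was 1.83%, 2.18% and 1.64% in control and 1.5004%, 1.28% and 1.10% after neomycin, without overlap. The share of Tead3 was 20.1%, 18.6% and 20.5% in control and 18.1%, 18.5% and 18.5% after neomycin, also without overlap, by a narrow margin. Tead1 held 17.7% ± 2.65 and 16.4% ± 1.97. With the longest transcript as length the share of Tead2 was 56.9% and 60.2%, and the groups again did not overlap for Tead3 and Tead4.

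**Figure D3:**
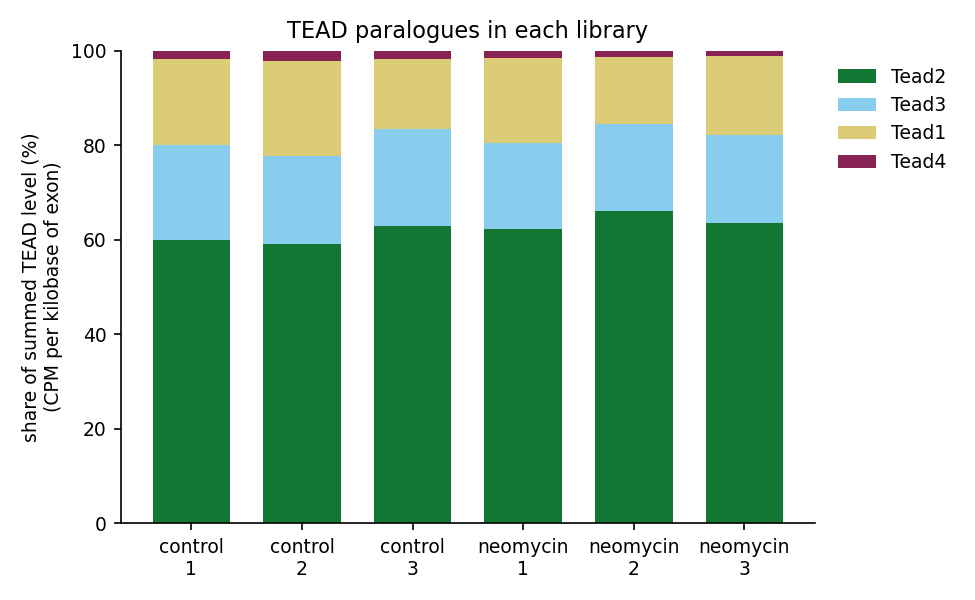
Share of each TEAD gene in the summed TEAD level (vertical axis, percent, from CPM per kilobase of exon) in each of the 6 libraries, as stacked bars. Tead2 fills 59.0% to 66.03% of every bar, and the Tead4 cap is 2.18% or less.

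The log2 ratio of Yap1 plus Wwtr1 to the TEAD genes was 0.37, 0.41 and 0.31 in control and 0.21, 0.14 and 0.24 after neomycin. The ratio of the VGLL genes to the TEAD genes was -2.54, -2.65 and -2.80 in control and -3.11, -3.26 and -3.19 after neomycin. In neither ratio did the groups overlap, and both were lower after neomycin. The means were 0.36 in control and 0.20 after neomycin for the co-activators, and -2.67 and -3.18 for the VGLL genes. Most of the VGLL sum was Vgll4, at means of 5.57 CPM per kilobase in control and 3.89 after neomycin. Vgll3 had 1.33 and 1.03, so the VGLL ratio is not separate from the fall of Vgll4. The ratio of Yap1 to Wwtr1 was -1.14 ± 0.048 in control and -1.17 ± 0.093 after neomycin, with overlap. With the longest transcript as length its means were -0.36 and -0.39, and those of the co-activators to the TEAD genes 0.09 and -0.07. In exact two-sided permutation tests of these 7 shares and ratios, those without overlap had p = 0.1, the smallest that 3 samples against 3 allow, and the smallest adjusted p was 0.175, so none could pass a threshold of 0.05.

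Upstream of these factors, 15 genes of kinases and adaptors that act on YAP and TAZ were all tested. None rose and 11 fell (edgeR, adjusted p under 0.05), so that 73.3% changed against 29.0% of all genes, with a median log2 fold change of -0.33 against -0.004 for all genes. Without neomycin replicate 2, 7 fell, in a fit where 2518 of all 16177 genes tested changed. With the length trend removed 8 fell, where 3752 of all 15988 genes changed. With a fold change over 1.5, 5 fell, where 6.60% of all genes did. Mob1a and Mob1b encode the scaffolds of the LATS kinases, and Nf2 encodes merlin, which recruits those kinases to the membrane. Mob1a had 33.8, 32.9 and 25.9 CPM in control and 17.8, 17.0 and 12.1 CPM after neomycin (log2 fold change -0.98, edgeR adjusted p = 0.000539). Nf2 had 188, 163 and 170 CPM against 110, 96.9 and 85.4 CPM (log2 fold change -0.83, edgeR adjusted p = 0.000101). Mob1b had 26.7, 29.96 and 21.7 CPM against 18.0, 13.1 and 13.5 CPM (log2 fold change -0.81, edgeR adjusted p = 0.00157). With the length trend removed, Mob1b had -0.56 (edgeR, adjusted p = 0.00301), short of a 1.5-fold fall. In these 3 genes, named for the largest falls among the changed genes of the list, every neomycin library lay below every control library. Among all genes the groups did not overlap for 43.5%. The study singled out Stk4 (under the protein name MST1), Lats1, Lats2, Mob1b and Amotl2 in these samples, so their direction is not independent evidence.

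Genes of proteins that bind YAP and TAZ made a list of 16, all tested. Some of these proteins hold YAP and TAZ at junctions or in the cytoplasm. The list also held kinases and a ubiquitin ligase component that act on YAP and TAZ in other ways. Of the 16 genes none rose and 4 fell, so that 25.0% changed, no more than the 29.0% of all genes. The median log2 fold change was -0.07. The falls were in the angiomotin-like genes Amotl2 (from 129 to 92.2 CPM, log2 fold change -0.48, edgeR adjusted p = 0.00213) and Amotl1 (from 101 to 76.8 CPM, -0.40, adjusted p = 0.00795), in the phosphatase gene Ptpn14 (from 63.1 to 46.7 CPM, -0.44, adjusted p = 0.00899) and in Ywhag, whose protein binds phosphorylated YAP (from 152 to 126 CPM, -0.27, adjusted p = 0.0164). Without control replicate 2, and also without neomycin replicate 2, 2 fell, where 2567 of 16184 and 2518 of 16177 genes changed. In both of those fits the adjusted p of Ptpn14 was over 0.05, at 0.0539 and 0.0579 by edgeR. With the length trend removed, Ptpn14 had -0.20 (edgeR, adjusted p = 0.0860) and Amotl1 -0.21 (edgeR, adjusted p = 0.0530).

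Other transcription factors and cofactors that YAP, TAZ or TEAD are known to work with made a list of 13 genes, of which 10 were tested. None rose and 2 fell (median -0.14), so that 20% changed, below the 29.0% of all genes. Smad3, which encodes a mediator of TGF-beta signals, was among them and fell from 70.0 to 59.8 CPM (log2 fold change -0.23, edgeR adjusted p = 0.0348). The call on Smad3 did not hold with the length trend removed, with upper quartile scaling, or without control replicate 1, control replicate 2, neomycin replicate 2 or neomycin replicate 3, where the count of falls was 0 to 1.

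Genes that YAP and TAZ are known to activate made a list of 22, all tested. Of these 10 fell and 2 rose (median -0.34), so that 54.5% changed against 29.0% of all genes. With a fold change over 1.5, 6 fell, where 6.60% of all genes did. With a library left out at a time, 7 to 12 fell, while 2518 to 5341 of all genes changed. Ankrd1, a nuclear ankyrin-repeat gene, had 27.5, 38.1 and 33.1 CPM in control and 12.5, 11.4 and 20.1 CPM after neomycin, and its log2 fold change was -1.16 (standard error 0.18, edgeR adjusted p = 0.000878). Crim1, a transmembrane regulator of BMP signals, had 87.5, 106 and 82.5 CPM against 43.8, 43.1 and 51.6 CPM (log2 fold change -0.99, edgeR adjusted p = 3.92e-05). Arhgef17, a guanine nucleotide exchange factor, had 174, 149 and 134 CPM against 102, 93.2 and 94.0 CPM (log2 fold change -0.66, edgeR adjusted p = 0.000441). These 3 genes, also named for the largest falls, had no overlap between groups, as was so for 43.5% of all genes.

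The matricellular genes Ccn1 and Ccn2, listed as Cyr61 and Ctgf in the table, are the usual readouts of YAP. Ccn1 had 83.8, 134 and 116 CPM in control and 67.4, 64.2 and 89.2 CPM after neomycin, a log2 fold change of -0.60 (edgeR adjusted p = 0.0132), and the groups overlapped through neomycin replicate 3. Its adjusted p was 0.0502 with DESeq2, 0.0790 without control replicate 2 and 0.0734 without neomycin replicate 2 (edgeR for the latter values). Ccn2 had 452, 498 and 484 CPM against 374, 334 and 458 CPM, a log2 fold change of -0.30 with an adjusted p of 0.0529 by edgeR, 0.0201 by DESeq2 and 0.0441 by limma-voom. With a library left out at a time it ran from -0.43 without neomycin replicate 3 (edgeR, adjusted p = 0.0117) to -0.20 without neomycin replicate 2 (edgeR, adjusted p = 0.247), and it passed 0.05 in the first of these fits alone. With the length trend removed, Ccn1 had -0.78 (edgeR, adjusted p = 0.00175) and Ccn2 -0.39 (edgeR, adjusted p = 0.0107).

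The 2 target genes that rose did so by less than 1.5-fold. Fjx1, a secreted regulator of planar polarity, went from 35.7 to 44.5 CPM (log2 fold change 0.32, edgeR adjusted p = 0.00839). Ccdc80, an extracellular matrix gene, went from 255 to 305 CPM (0.26, adjusted p = 0.0392). The call on Ccdc80 was lost in 5 of the 6 fits that left out a library, all but the one without control replicate 1, where its log2 fold change was 0.35. Lats2 belongs to both the kinase and the target list, and Amotl2 and Ptpn14 to both the binding and the target list, so the counts of these lists are not separate.

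**Figure D4:**
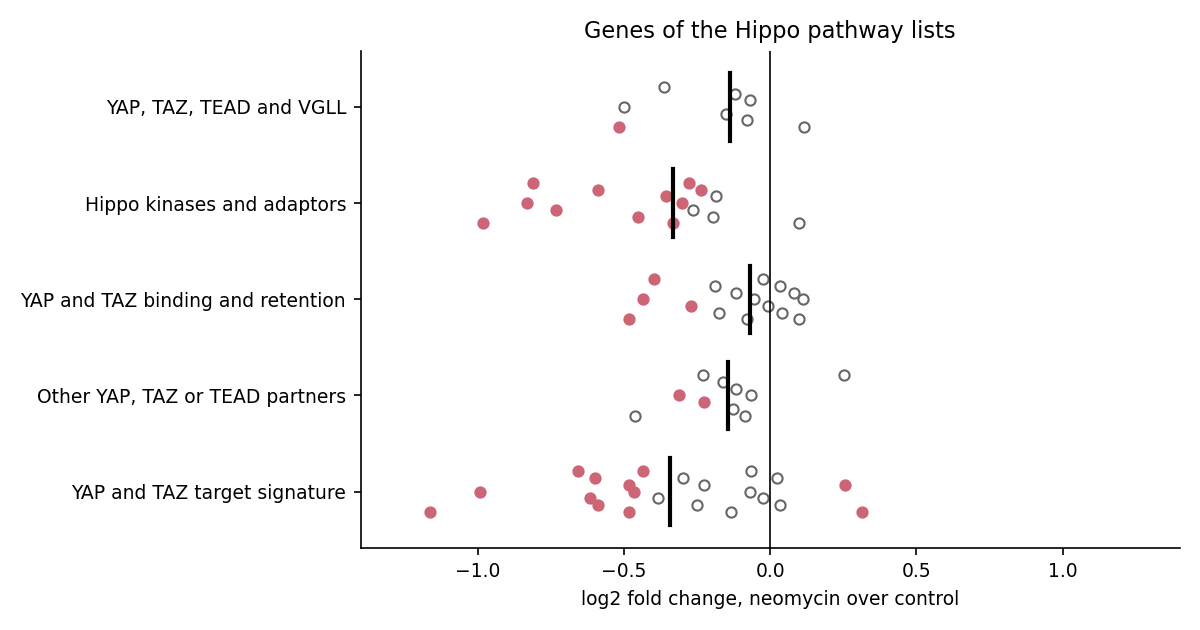
Log2 fold change of neomycin over control (horizontal axis) for each tested gene of the factors and of the 4 lists around them. Filled points have an adjusted p under 0.05 (edgeR), open points do not, and the black bar is the median of the list. The factors have 1 filled point, while 11 of the 15 kinases and adaptors are filled and lie left of 0.

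Markers of cell types in the explant were set beside these genes, where 12.9% of all genes rose and 16.1% fell. Of 12 HC markers 11 fell, and their summed level was 762 to 884 CPM in control and 239 to 295 CPM after neomycin. Of 12 supporting cell markers 1 rose and 5 fell, with summed levels of 1572 to 1594 and 1517 to 1731 CPM. Sox2, which defines supporting cells here, was at 79.3 CPM in control and 91.9 CPM after neomycin (edgeR, adjusted p = 0.0640), while Prox1 fell from 4.08 to 1.49 CPM.

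Skeletal muscle, where Vgll2, Vgll3 and Tead4 are known to act, had its defining marker Myod1 at 0 in all libraries and Myog at 0.0479 and 0.105 CPM in the means. Of 12 muscle markers 6 were tested and 1 fell, Chrna1, and the summed level was 23.3 to 29.7 CPM in control and 12.6 to 14.4 CPM after neomycin. Most of the control sum was Chrna1, at 17.3 CPM in control and 2.59 CPM after neomycin. Actn3 and Mylpf were at 5.59 and 2.29 CPM in control and at 5.68 and 2.42 CPM after neomycin. No tested muscle marker other than Chrna1 had a log2 fold change below 0. Of 8 endothelial markers 6 fell, with summed levels of 281 to 315 and 267 to 317 CPM and a median log2 fold change of -1.94. Most of that sum was Emcn, at 252 and 273 CPM, while the defining markers Pecam1 and Cdh5 fell from 9.78 to 1.49 and from 8.81 to 2.12 CPM. Of 10 mesenchymal markers 2 rose and 3 fell (6009 to 6569 and 6412 to 6627 CPM), and of 8 macrophage markers 3 rose (68.3 to 86.8 and 89.6 to 115 CPM). Of 7 smooth muscle and pericyte markers 1 fell (109 to 132 and 91.7 to 109 CPM), and of 7 Schwann cell markers 1 fell (464 to 519 and 450 to 469 CPM). Of 8 neuronal markers 1 rose and 3 fell (191 to 267 and 178 to 196 CPM), and of 6 chondrocyte markers 5 were tested and 3 rose (6701 to 8159 and 8263 to 8761 CPM). The part of these cell types in the change of Vgll4, or of the lists, was not tested.

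Fold changes also moved with gene length. The median log2 fold change was 0.26 over 2449 genes with under 2 kb of exon, -0.07 over 5823 genes with 4 to 8 kb, and -0.20 over 2651 genes with 8 kb or more. Yap1 has 9257 bases of exon and Vgll4 5396. With this trend removed, Vgll4 had a log2 fold change of -0.46 (edgeR, adjusted p = 0.0018).

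**Figure D5:**
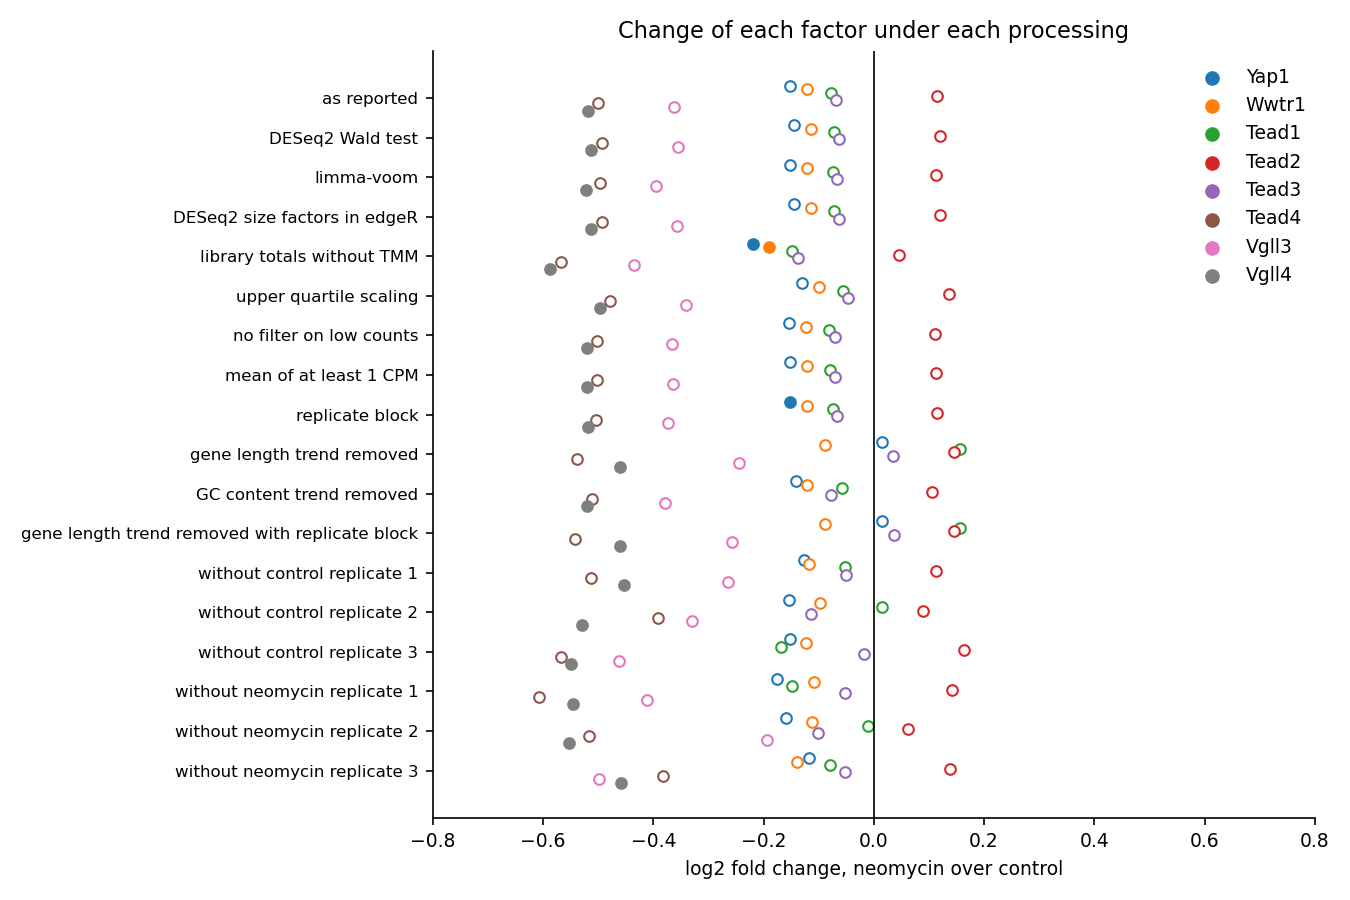
Log2 fold change of neomycin over control (horizontal axis) for the 8 tested factors as reported and under each of 17 other ways of processing (rows). Filled points have an adjusted p under 0.05 and open points do not. Vgll4 is filled in every row, between -0.59 and -0.45, and the small differences of Yap1, Tead1 and Tead3 lie right of 0 where the length trend is removed.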

How the data were processed

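RNA of 3 control and 3 neomycin samples was sequenced after an Illumina mRNA preparation. The authors called bases with Casava 1.8, trimmed reads with trimmomatic 0.23, aligned them to UCSC mm10 with Hisat2 and counted them with HTSeq. The deposited values are raw counts per gene symbol. The strand setting and the handling of reads with several matches are not given in the sources used here.

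Counts were scaled by TMM, filtered with filterByExpr and tested with edgeR 4.0.16 (quasi-likelihood test, Benjamini-Hochberg over 15988 genes) in R 4.3.3. Changed means an adjusted p under 0.05, and differentially expressed adds a fold change over 1.5. DESeq2 1.42.0, limma-voom (limma 3.58.1), other scalings and filters, trends on exon length and GC content (lowess, span 0.3), a replicate block and samples left out in turn were the alternatives. Exact permutation tests used scipy 1.17.1, and figures matplotlib 3.10.9. The code was tested on simulated data. Replicates were compared, with a mean chi-square per gene of 13.8 to 46.6, and none was a repeat of another. Intervals and floors cover counting error or the spread between samples only.

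Of the symbols, 23376 matched GENCODE on mm10 directly and 656 by a synonym. All 9 factors are named, with up to 3 rises and 3 falls of largest log2 fold change among changed genes of each list (Hippo kinases and adaptors, YAP and TAZ binding and retention, other partners, target signature), Ccn1, Ccn2 and Ankrd1, symbol checks, and the 2 nearest profiles of each changed factor with a mean of at least 1 CPM. A gene that the rule picks from the list of other partners is not reported here. Ywhag and the markers named singly fall outside this rule and were named after their values were seen. The factors and lists were chosen with earlier results of these data known.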

Additional observations from a re-analysis of the deposited data

How the results depend on the processing

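Vgll4 was lower at an adjusted p under 0.05 under all 17 alternatives fitted, with log2 fold changes from -0.59 to -0.45 and adjusted p-values up to 0.00967. On library totals without TMM, where the median of all genes shifted by -0.069, Yap1 (-0.22) and Wwtr1 (-0.19) also passed, so 3 factors changed and 1, Vgll4, passed the 1.5-fold threshold. Removing the length trend turned Yap1 to 0.014, Tead1 to 0.16 and Tead3 to 0.034, or with the replicate block added to 0.0145, 0.16 and 0.037, and the cause of the length trend was not tested. It left 2 binding genes called higher, and with the block 2 binding genes and 1 kinase gene, and it left 0 partner genes lower, or 1 with the block. Kinase genes called lower then numbered 8, or 9 with the block. Upper quartile scaling left 1 partner gene lower, and library totals 1 target gene higher.

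Leaving out a sample at a time moved Tead1 between -0.17 and 0.015. The log2 ratio of Yap1 to Wwtr1 moved between -0.067 and 0.022 (above 0 without neomycin replicate 3). Kinases called lower ran between 7 and 12, binding genes between 2 and 4 and partner genes between 0 and 3. Target genes called lower ran between 7 and 12, and those called higher between 1 and 2. Among all genes tested, those changed ran from 2518 without neomycin replicate 2 to 5341 without control replicate 3.

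Same-numbered control and neomycin samples had correlations of their deviations of 0.165, 0.0264 and 0.0949, and control replicate 2 correlated best with neomycin replicate 3 (0.0325), so the numbers were not taken as pairs. With the replicate block, Yap1 had a log2 fold change of -0.15 (edgeR, adjusted p = 0.0444), so 2 factors changed, and 6014 genes in place of 4629. Counts set the floor for Vgll2, at 3 counts per library.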
